A study of Mus musculus with 12 samples.

Results

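The mitochondrial ribosomal proteins were taken as the genes whose probe set carries a single symbol that begins with Mrpl or Mrps followed by a digit, with pseudogenes left out. The brightest probe set by mean signal over the 12 arrays stood for each gene. This gave 77 genes of the 15273 tested, 48 named for the large subunit (Mrpl) and 29 named for the small subunit (Mrps). All 77 passed the filter on dim genes, a mean log2 signal above 5.36, and Mrpl53 was left out because its probe set is shared with another gene. The rule uses names and mean brightness, not differences between groups.

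The RNA came from microglia, brain-resident macrophages, of mice, taken into primary culture, and was read on Affymetrix Mouse Gene 1.0 ST arrays, which give 1 log2 signal per probe set. Cells of wild-type mice and of mice labelled TLR4 knockout were held for 24 h in ischemia (low oxygen or glucose) or in control conditions, and all cells then had 24 h of reperfusion, that is, normal oxygen and glucose again. Each genotype thus had a control group and an ischemia group, making 4 groups with 3 arrays each, numbered 1 to 3, so every value describes cells after the recovery period. Separate cultures or animals are not named for the arrays of a group, so p-values here measure the spread between samples and no more, and that spread may be technical.

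Mitochondria keep a small genome that codes for core subunits of the respiratory chain and the ATP synthase, and they translate it on ribosomes of their own. The proteins of these ribosomes are coded in the nucleus, made in the cytosol, imported, and assembled on ribosomal RNA made inside the mitochondrion. The small subunit reads the messenger RNA and the large subunit joins the amino acids; some of the proteins descend from bacterial ribosomal proteins, while others are found only in mitochondrial ribosomes.

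The labels held some conflicts. The wild-type ischemia arrays carry a source name that reads as normoxia, against their title and the key given for the series, and the title was followed. The extraction text speaks of myocytes where all other labels say microglia. The microglial and macrophage genes Csf1r, Itgam and Tyrobp had mean signals of 12.27, 11.98 and 12.11. P2ry12 and Tmem119, markers of resting microglia in the brain, had 5.75 and 6.51, and the brightest of 8 muscle genes, Actc1, had 7.13. Among genes of border macrophages and monocytes, Mrc1 had 11.17 and Pf4 7.37, while Cd163, Lyve1 and Ccr2 had 5.01, 5.36 and 4.83. The brightest oligodendrocyte, astrocyte and fibroblast genes listed, Cnp, Aldh1l1 and Col1a1, had 8.31, 8.16 and 7.71. The Tlr4 probe set read 8.39 to 8.97 in the 6 knockout-labelled arrays and 8.54 to 9.02 in the 6 wild-type arrays; the sources used here do not name the deleted part of the gene, this probe set may lie outside it, and the arrays are called knockout-labelled throughout.

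The bases before the start sites are shown for a few of these genes as a description. Whether they have a part in the changes after ischemia was not tested. Of the 77 genes, 68 had a promoter window in the RefSeq table for GRCm38.p6, which holds 300 bases from 250 before to 50 after a start, and 74 windows belonged to them. Letters bound by known regulators of nuclear genes for mitochondrial proteins were searched on both strands. The ETS letters CCGGAAG, the core bound by the GABP factor (also called NRF2), stood in 25 of the 74 windows (33.8%) and in 8.9% of all 32851 windows of this length. The NRF1 letters CGCANGCG, in which N is any base, stood in 20 (27.0%, against 8.2% of all windows); 7 of these 20 held the form CGCATGCG (9.5%, against 1.9%). The YY1 letters AAGATGGC stood in 12 (16.2%, against 2.7%). The E-box CACGTG stood in 7 (9.5%, against 7.2%) and the CRE letters TGACGTCA in 2 (2.7%, against 1.8%). The 7 E-box windows belonged to 5 genes, because Mrpl2 has several overlapping windows. For the other letters the number of genes equals the number of windows. The stretches below are the 100 bases just before the start of 4 genes, read 5′ to 3′ on the strand of the gene, chosen because no annotated gene lies over them, with the searched letters in capitals. Mrpl52 (chr14:54426809-54426908, plus strand) had the largest change in the wild type and carries the ETS letters as their reverse complement. Mrps18a (chr17:46110904-46111003, plus strand) carries the ETS letters as written, Mrpl32 (chr13:14613038-14613137, minus strand) the NRF1 form CGCATGCG in 2 places, and Mrpl17 (chr7:105811088-105811187, minus strand) that form once and once with another base in its free position.
Mrpl52: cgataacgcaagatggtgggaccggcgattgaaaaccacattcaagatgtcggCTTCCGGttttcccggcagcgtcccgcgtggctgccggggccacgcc
Mrps18a: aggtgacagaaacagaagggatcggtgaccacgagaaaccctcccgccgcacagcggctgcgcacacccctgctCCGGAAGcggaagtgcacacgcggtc
Mrpl32: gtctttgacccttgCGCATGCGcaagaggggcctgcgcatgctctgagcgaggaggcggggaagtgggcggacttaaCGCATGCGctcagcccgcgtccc
Mrpl17: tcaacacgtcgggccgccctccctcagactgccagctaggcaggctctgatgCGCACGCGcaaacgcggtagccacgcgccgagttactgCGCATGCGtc
A match of letters is a description of the window and not a measured binding site. Matches were not set against the changes in signal, and the share over all windows is not limited to expressed genes. Mrps18a, Mrpl32 and Mrpl17 were not among the genes called in the wild type below.

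The signals of the 77 probe sets ran from a mean of 6.06 for Mrpl22 to 10.15 for Mrps15, which reflects the probes as well as the RNA, and 76 lay above the median of all probe sets. The brightest of the large subunit were Mrpl51 (9.82), Mrpl39 (9.70) and Mrpl18 (9.44), and the dimmest besides Mrpl22 were Mrpl57 (6.97) and Mrpl42 (6.99). In the small subunit Mrps15, Mrps18c (9.44) and Mrps18a (9.20) were brightest, and Mrps11 (6.65), Mrps10 (6.78) and Mrps36 (6.86) dimmest. Averaged over the 77 genes, the wild-type control arrays 1, 2 and 3 read 7.92, 8.17 and 7.89, and the wild-type ischemia arrays read 8.26, 8.34 and 8.24. The knockout-labelled control arrays read 8.10, 8.03 and 8.17, and the knockout-labelled ischemia arrays 8.20, 8.15 and 8.25. All 3 wild-type ischemia arrays lay above all 3 wild-type controls, of which array 2 stood well above the other two, while the knockout-labelled groups overlapped. The group means were 7.995 ± 0.15 for the wild-type controls and 8.28 ± 0.052 for wild-type ischemia, and 8.10 ± 0.070 for the knockout-labelled controls and 8.20 ± 0.049 for knockout-labelled ischemia (SD over arrays, n = 3 each). Fewer cells of a type and less RNA per cell cannot be told apart in bulk RNA of this kind.

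**Figure D1:**
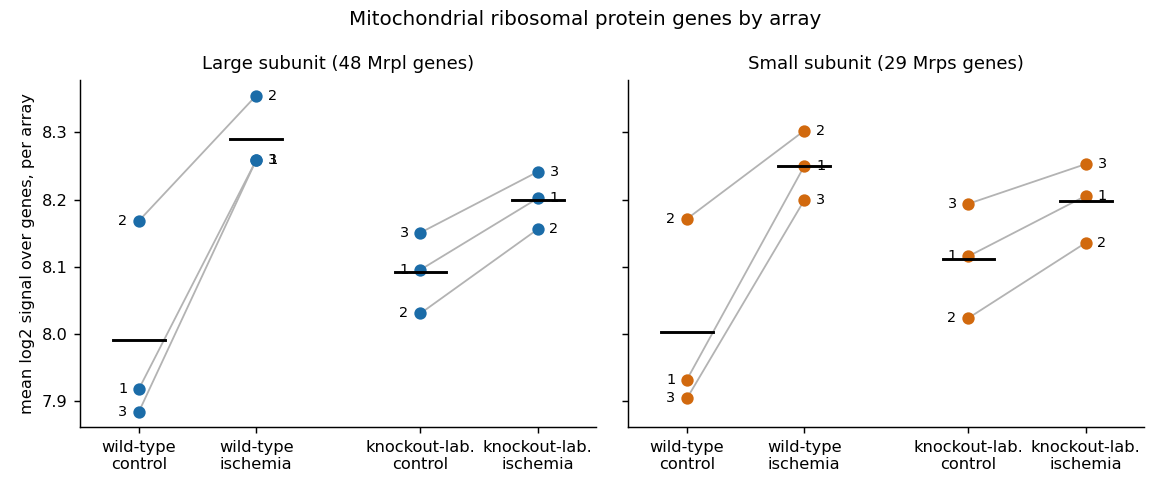
Mean log2 signal per array (vertical axis) over the 48 Mrpl genes (left) and the 29 Mrps genes (right) in the 4 groups; each point is 1 array with its number, grey lines join arrays of the same number, and black bars are group means of 3 arrays. In both subunits the 3 wild-type ischemia arrays lie above the 3 wild-type controls, and each line rises.

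Wild-type cells after ischemia and reperfusion were compared first with wild-type controls. Signals were higher for 73 of the 77 genes, with a median log2 change of 0.27, or 1.21-fold, where the median over all genes tested was 0.012 and 52.4% of them were higher. The large subunit had 47 of 48 genes higher (median 0.30) and the small subunit 26 of 29 (median 0.25). In the 3 same-numbered pairs of arrays the mean change over the 77 genes was 0.33, 0.17 and 0.34, with 67, 66 and 74 genes higher. The pairs thus had the same sign, and the second was smaller than the other two. In all 3 pairs 58 genes were higher (25.8% of all genes tested were) and 1, Mrps16, was lower (22.9%).

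The test by limma with group means alone called 0 of the 77 at an adjusted p under 0.05; it called 0.0131% of all genes tested. At an unadjusted p under 0.05, 33 members were higher and 0 lower, against 7.38% and 7.29% of all genes tested. Arrays of the same number within a genotype varied together, so limma was also fitted with a block for each genotype and number, called the paired fit here. In the paired fit 15 members rose and 0 fell, against 2.99% and 0.74% of all genes tested. At an unadjusted p under 0.05 it had 49 members higher and 0 lower (13.9% and 10.2%). Of the 15, 11 belong to the large subunit and 4 to the small. Their changes ran from 0.40 to 0.74, and the same 15 had adjusted p = 0.242 to 0.292 without the block. For 26 members all wild-type ischemia arrays lay above all controls (9.38% of all genes tested), and for 1, Mrps16, all lay below (12.3%). The paired count depended on single arrays: it was 3 without wild-type array 1 or 3 of either condition and 8 without knockout-labelled array 2 of either condition. It was 6 after a further quantile normalization, 30 after median centring and 7 with no filter on dim genes. Without wild-type control array 2 the median change was 0.36, and limma with group means alone called 6 members.

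Among the 15, Mrpl52, a protein found only in mitochondrial ribosomes, read 8.19, 8.21 and 8.18 in the wild-type controls and 8.90, 8.71 and 9.17 after ischemia. The groups lay far apart, with the controls within a narrow band. It rose by 0.74 ± 0.10 (SE) in the paired fit of limma (adjusted p = 0.00169). Mrpl42, also specific to mitochondria, read 6.41, 7.22 and 6.43 in the controls and 7.35, 7.78 and 7.07 after ischemia. Control array 2 was high and overlapped with the ischemia group, and each ischemia array still lay above its own control. Mrpl42 rose by 0.71 ± 0.10 (adjusted p = 0.00204, paired fit of limma). Mrpl41, another protein of the large subunit with no bacterial relative, read 7.88, 7.64 and 7.92 in the controls and 8.39, 8.14 and 8.52 after ischemia, without overlap. Its rise was 0.54 ± 0.091 (adjusted p = 0.00612, paired fit of limma).

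Mrpl33, related to bacterial L33, read 7.06, 7.09 and 6.70 in the controls and 7.54, 7.48 and 7.41 after ischemia. Mrpl21, related to bacterial L21, read 7.33, 7.96 and 7.42 against 8.11, 8.27 and 8.03. Neither gene had overlapping groups, and they rose by 0.52 and 0.57 (adjusted p = 0.0109 and 0.0106, paired fit of limma). In the small subunit, Mrps33, found only in mitochondria, read 7.87, 8.75 and 8.03 in the controls and 8.79, 8.98 and 8.74 after ischemia, again with control array 2 high. Mrps21, related to bacterial S21, read 8.04, 8.50 and 7.93 against 8.77, 8.66 and 8.71, with all ischemia arrays above all controls. These 2 genes rose by 0.62 and 0.55 (adjusted p = 0.0190 and 0.0258, paired fit of limma).

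The other 7 that rose, apart from Mrps18b, which is described with its paralogs, lay closer to the threshold. Mrpl18, related to bacterial L18, read 9.15, 9.58 and 9.15 in the wild-type controls and 9.57, 9.87 and 9.68 after ischemia, with a slight overlap through control array 2 (0.42, adjusted p = 0.0315, paired fit of limma). Mrps35 of the small subunit read 7.36, 7.56 and 7.24 against 7.83, 7.91 and 7.64, without overlap (0.40, adjusted p = 0.0334, paired fit of limma). In Mrpl46, found only in mitochondria, the values were 7.79, 7.91 and 7.62 against 8.09, 8.29 and 8.19 (0.41, adjusted p = 0.0453, paired fit of limma), and in knockout-labelled cells both Mrps35 and Mrpl46 were near 0, at 0.017 and 0.031. Mrpl23, related to bacterial L23, the protein at the exit of the peptide tunnel, read 8.58, 9.30 and 8.88 against 9.40, 9.35 and 9.52. Mrpl36, related to bacterial L36, read 7.59, 7.83 and 7.61 against 8.34, 7.87 and 8.29; its second pair moved by far less than the others. Mrpl51 read 9.42, 9.999 and 9.41 against 10.14, 10.20 and 9.73, and Mrpl11 8.19, 8.53 and 7.88 against 8.59, 8.72 and 8.51. The changes of these last 4 genes were 0.50, 0.49, 0.42 and 0.40, and their adjusted p in the paired fit of limma lay between 0.0466 and 0.04999. Mrpl23, Mrpl41, Mrpl51 and Mrps33 are each listed with 2 probe sets on the array, and the second probe set gave 0.52, 0.33, 0.30 and 0.64. Over the 12 arrays it correlated with the brightest at 0.997, 0.82, 0.91 and 0.993, so for Mrpl23 and Mrps33 it adds little. In knockout-labelled cells Mrpl41 had 0.13 on the brightest and -0.075 on the second probe set. Mrpl27, which was not called, had 0.074 and -0.0042 there.

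**Figure D2:**
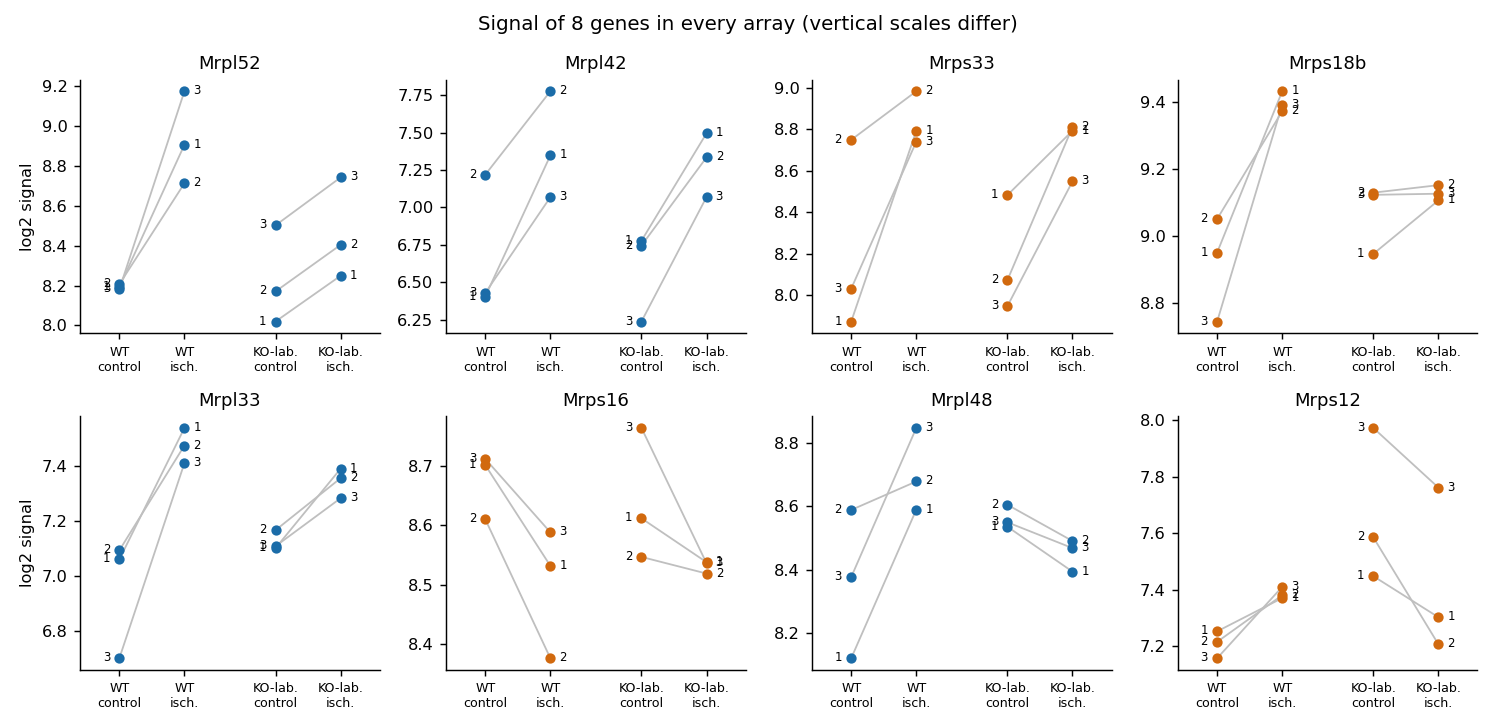
Log2 signal (vertical axes, with a different scale in each panel) of 8 genes in every array; WT is wild-type, KO-lab. is knockout-labelled, and grey lines join arrays of the same number. Mrpl52, Mrpl42, Mrps33, Mrps18b and Mrpl33 are higher after ischemia in each wild-type pair, Mrps16 is lower in all 6 pairs, and Mrpl48 and Mrps12 go up in each wild-type pair and down in each knockout-labelled pair.

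Of the 4 members with a lower mean after ischemia in the wild type, none passed either fit of limma. Mrps16, related to bacterial S16 and known from an inherited human disease of mitochondrial translation, read 8.70, 8.61 and 8.71 in the controls and 8.53, 8.38 and 8.59 after ischemia. All ischemia arrays lay below all controls, by 0.18 on average (limma adjusted p = 0.385; 0.258 in the paired fit). Mrps10 and Mrps2 had changes of -0.081 and -0.018 and overlapping groups. Mrpl47 had -0.051 on its brightest probe set, for which the platform annotation lists no RefSeq messenger RNA, and 0.51 on its other probe set, which does list one; the 2 probe sets ran against each other over the 12 arrays (r = -0.56). For Mrpl47 the value printed by the brightest-probe rule therefore rests on a probe set of uncertain target.

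In knockout-labelled cells the same comparison gave smaller differences. Signals were higher after ischemia for 54 of the 77 genes, with a median change of 0.080, where the median over all genes tested was -0.00092 and 49.8% were higher. The large subunit had 32 of 48 genes higher (median 0.082) and the small subunit 22 of 29 (median 0.080). The mean change over the 77 genes was 0.10, 0.12 and 0.079 in the 3 pairs, with 56, 50 and 47 genes higher. In all 3 pairs 32 genes were higher (20.8% of all genes tested) and 9 lower (18.7%). With group means alone limma called 0 of the 77, as it called 0% of all genes tested; 7 members were higher and 0 lower at an unadjusted p under 0.05 (5.66% and 3.08% of all genes tested). In the paired fit 1 member rose and 0 fell, against 0.537% and 0.111% of all genes tested; at an unadjusted p under 0.05 it had 20 higher and 1 lower (12.4% and 6.8%). The groups did not overlap for 14 members that were higher (7.94%) and 2 that were lower (6.36%). The 1 call was lost without knockout-labelled array 2 or 3 of either condition, there were 7 calls without array 1 of either condition, and the median change was 0.024 after a further quantile normalization.

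The 1 member called was Mrpl42, which read 6.78, 6.75 and 6.24 in the knockout-labelled controls and 7.495, 7.33 and 7.07 after ischemia. All 3 ischemia arrays lay above the controls. It rose by 0.71 ± 0.10 (adjusted p = 0.0121, paired fit of limma), the same amount as in the wild type. Mrps33 read 8.48, 8.07 and 7.95 against 8.79, 8.81 and 8.55, a change of 0.55 with no overlap that did not pass (adjusted p = 0.0666, paired fit of limma). Mrpl50, a large subunit protein found only in mitochondria, read 7.64, 7.28 and 6.92 against 7.90, 7.70 and 7.69, also without overlap and short of the threshold (0.48, adjusted p = 0.0580, paired fit of limma). The lowest changes were those of Mrps12, the relative of the bacterial decoding protein S12, at -0.25, Mrpl12, the stalk protein that recruits translation factors, at -0.22, and Mrpl17 at -0.18. In Mrpl17 and Mrps12 the knockout-labelled control array 3 was high, at 8.001 and 7.97 against 7.38 to 7.58 in control arrays 1 and 2, and no member fell in either fit of limma.

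**Figure D3:**
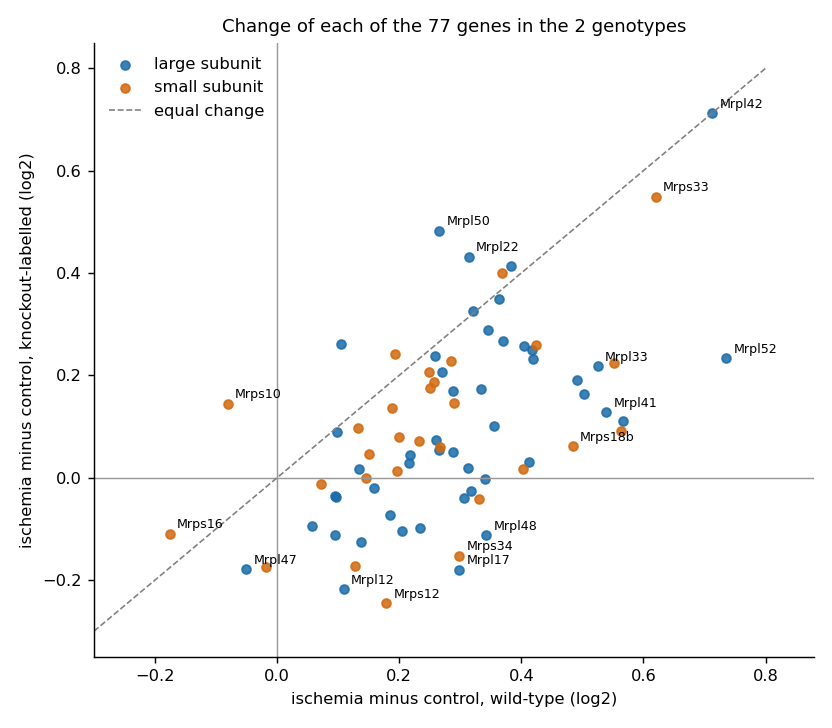
Change of each of the 77 genes after ischemia (log2, ischemia minus control, means of 3 arrays per group) in wild-type cells (horizontal axis) and knockout-labelled cells (vertical axis); blue points are Mrpl genes, orange points Mrps genes, and the dashed line marks equal change. Most points lie right of 0, and 68 of 77 lie below the dashed line; Mrpl42 sits on it.

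The mean of the 2 ischemia effects used all 12 arrays. Its median over the 77 genes was 0.17, with 69 genes higher, against -0.00022 and 50% over all genes tested. With group means alone limma called 0 members (0.00655% of all genes tested), and in the paired fit 25 rose and 0 fell (9.11% and 3.35% of all genes tested), 19 of the large subunit and 6 of the small. At an unadjusted p under 0.05, 31 were higher and 1 lower with group means (11.9% and 9.32%), and 43 and 1 in the paired fit (19.6% and 13.1%). All 6 ischemia arrays lay above all 6 controls for 2 members, Mrpl24 and Mrpl33 (0.89%), and below them for 0 (0.648%). The 25 changes ran from 0.23 to 0.71, and without the block these genes had adjusted p = 0.114 to 0.241 in limma. Mrpl42 led with 0.71 (adjusted p = 0.000294, paired fit of limma), followed by Mrps33 (0.58) and Mrpl52 (0.48). Beyond the genes called in a single genotype, the 25 took in Mrpl1, Mrpl3, Mrpl15, Mrpl16, Mrpl20, Mrpl22, Mrpl24, Mrpl50, Mrpl57, Mrps18c, Mrps25 and Mrps30. Mrpl16 and Mrpl18, relatives of bacterial L16 and L18, rose by 0.32 and 0.33 (adjusted p = 0.0148 and 0.0117, paired fit of limma). Mrpl16 read 7.85, 8.15 and 7.73 against 8.39, 8.38 and 8.07 in the wild type and 7.78, 8.14 and 7.76 against 8.11, 8.29 and 8.08 in knockout-labelled cells, higher in each of the 6 pairs. Mrpl57, a large subunit protein with no bacterial relative, had 0.36 and 0.35 in the 2 genotypes and rose by 0.36 on average (adjusted p = 0.0175, paired fit of limma). Mrpl3, related to bacterial L3, which reaches into the site of peptide bond formation, had 0.26 and 0.24 and rose by 0.25 (adjusted p = 0.0322, paired fit of limma). The count was 7 without knockout-labelled array 2, 8 without wild-type array 1, 10 without knockout-labelled array 3 and 14 without wild-type array 3, each of either condition, and 15 after a further quantile normalization.

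Both genotypes could be read side by side over their own arrays. In all 6 pairs 31 members were higher (10.7% of all genes tested), 20 of the large subunit and 11 of the small, and 1, Mrps16, was lower (6.36%). The 4 members whose ischemia arrays lay above all controls in both genotypes were Mrpl15, Mrpl24, Mrpl33 and Mrps25 (2.02% of all genes tested). Mrpl15, the relative of bacterial L15, read 7.38, 7.24 and 7.21 against 7.56, 7.68 and 7.44 in the wild type and 7.34, 7.24 and 7.31 against 7.55, 7.36 and 7.48 in knockout-labelled cells. Mrpl24, the relative of bacterial L24, read 8.66, 9.08 and 8.87 against 9.30, 9.14 and 9.21 in the wild type and 9.02, 8.83 and 8.71 against 9.18, 9.16 and 9.08 in knockout-labelled cells. In Mrpl33 the knockout-labelled arrays read 7.10, 7.17 and 7.11 against 7.39, 7.36 and 7.28, so both groups of controls stayed below both groups of ischemia arrays. Mrps25, a small subunit protein with no bacterial relative, read 7.21, 7.61 and 7.09 against 7.75, 7.64 and 7.80 in the wild type and 7.33, 7.39 and 7.29 against 7.64, 7.58 and 7.57 in knockout-labelled cells. Mrps16 was the 1 member whose ischemia arrays lay below all controls in both (1.74%); its knockout-labelled arrays read 8.61, 8.55 and 8.76 against 8.54, 8.52 and 8.54. Its mean change of -0.14 did not pass (adjusted p = 0.149, paired fit of limma).

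**Figure D4:**
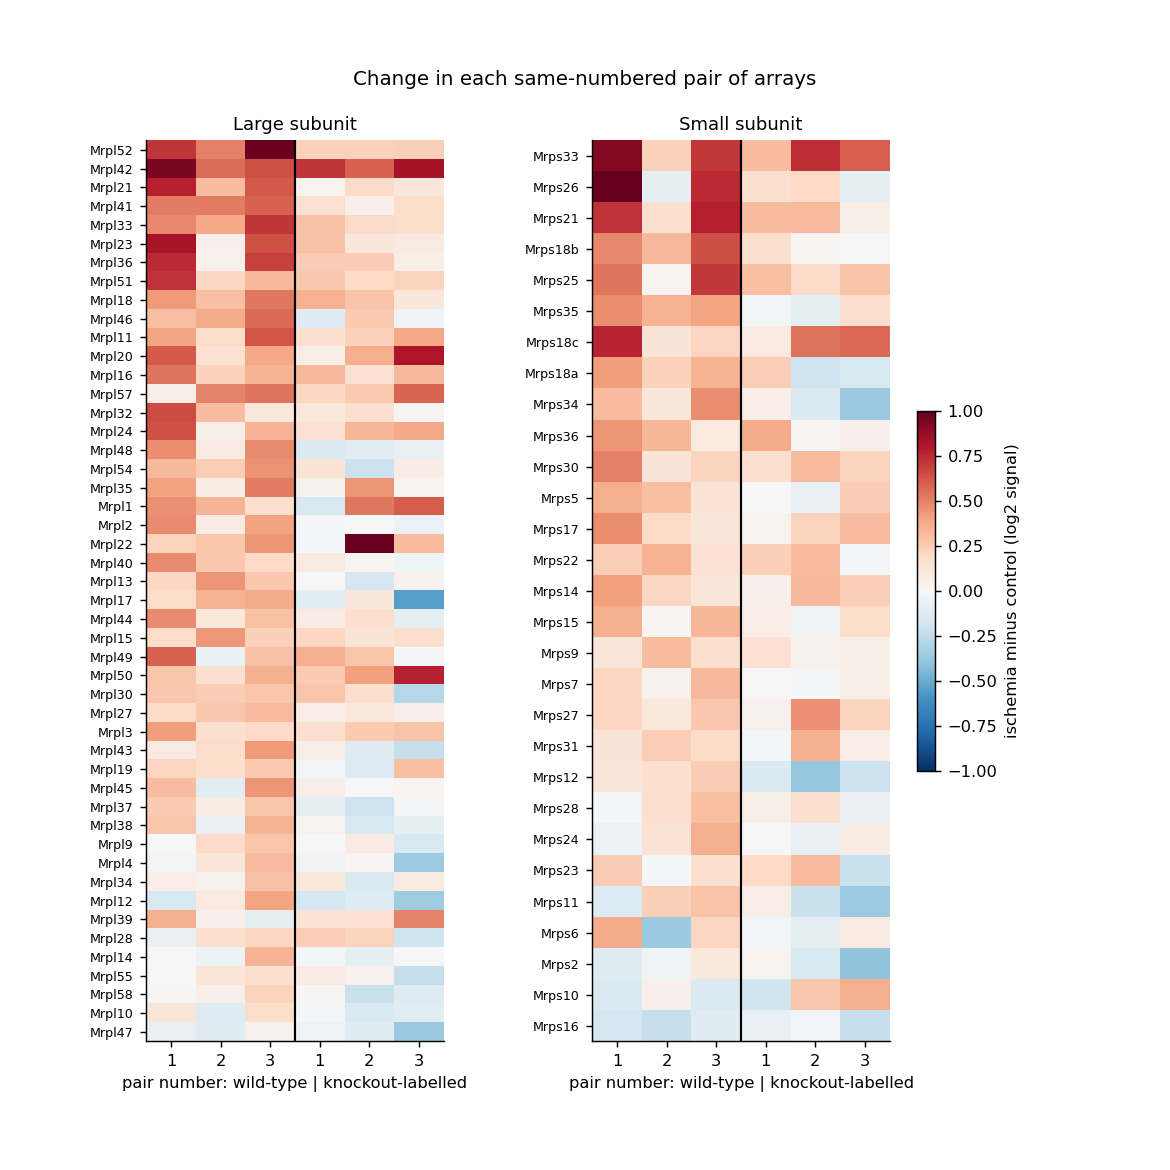
Change after ischemia (log2 signal, ischemia minus control) of each gene in each same-numbered pair of arrays, wild-type pairs left and knockout-labelled pairs right of the black line in each panel; red is higher and blue lower, and genes are ordered by their mean wild-type change. Wild-type pair 2 is paler than pairs 1 and 3, and the row of Mrpl42 is red in all 6 pairs while that of Mrps16 is blue in all 6.

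The difference between the 2 ischemia effects was tested directly. It was below 0, that is, smaller in knockout-labelled cells, for 68 of the 77 genes, with a median of -0.17 (0.0080 over all genes tested, of which 51.6% were above 0). This was not particular to the family. The difference was also below 0 for 66 of 73 nuclear respiratory chain and ATP synthase genes (median -0.18) and 53 of 57 cytosolic ribosomal protein genes (-0.15). Of 15 mitochondrial translation factors 8 were below 0 (-0.034). No member was called by limma with group means (0% of all genes tested) or in the paired fit (0.0131% of all genes tested higher and 0.295% lower). At an unadjusted p under 0.05, 8 members were lower with group means (1.4% of all genes tested) and 18 in the paired fit (5.05%), and 0 were higher in either (1.5% and 3.4%). The lowest adjusted p among members was 0.343, for Mrpl52 in the paired fit of limma; its difference was -0.50 (95% interval -0.98 to -0.021 with group means). Mrps26, a small subunit protein found only in mitochondria, read 8.18, 9.02 and 8.27 against 9.21, 8.93 and 9.02 in the wild type and 8.62, 8.56 and 9.20 against 8.78, 8.76 and 9.11 in knockout-labelled cells, with overlapping groups in both and a difference of -0.47. Mrpl17 had -0.48 and Mrpl41 -0.41 (adjusted p = 0.406, paired fit of limma). At the other end stood Mrps10 (0.23), Mrpl50 (0.22) and Mrpl39 (0.16). For Mrpl42 the difference was -0.00037, with a 95% interval from -0.73 to 0.73 with group means. That interval leaves room for a large difference either way, but it does not use the pairing. The changes of Mrpl42 in pairs 1, 2 and 3 were 0.94, 0.56 and 0.64 (wild type) and 0.72, 0.59 and 0.83 (knockout-labelled). The median difference was -0.28 without wild-type control array 2 and -0.098 without wild-type control array 3. The direction was the same in these settings, and no single gene of the family was shown to respond differently by genotype.

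The large and the small subunit were set against each other within each array. The mean over Mrpl genes minus the mean over Mrps genes was -0.014, -0.0028 and -0.020 in the wild-type controls and 0.0089, 0.052 and 0.060 after ischemia, with no overlap. In knockout-labelled cells it was -0.020, 0.0069 and -0.043 in the controls and -0.0037, 0.020 and -0.011 after ischemia, with overlap. As a difference of median changes, the large subunit exceeded the small by 0.054 in the wild type and by 0.0017 in knockout-labelled cells. Within groups, the pooled SD of the per-array large minus small value was 0.021. Between the arrays of a pair this value was higher after ischemia by 0.023, 0.055 and 0.080 in the 3 wild-type pairs and by 0.016, 0.013 and 0.032 in the 3 knockout-labelled pairs, so all 6 pairs shared a sign. The measure mattered: by medians over genes in place of means, the wild-type pairs gave -0.036, 0.014 and 0.088 and the knockout-labelled pairs 0.019, 0.097 and -0.015, without a shared sign. The wild-type difference of medians was 0.022 without ischemia array 3, about 0.029 to 0.030 without control array 1 or 3, 0.078 without ischemia array 1 and 0.11 without control array 2. In knockout-labelled cells it was -0.022 without ischemia array 3 and 0.030 without control array 3.

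Grouped by descent, the large subunit proteins with a bacterial relative (30 genes) had a median change of 0.30 in the wild type and 0.095 in knockout-labelled cells. Those found only in mitochondria (18) had 0.30 and 0.041. In the small subunit the 16 counted as having a bacterial relative had 0.19 and 0.053. A class of 10, made up of proteins found only in mitochondria and Mrps18b, a relative of bacterial S18, had 0.35 and 0.12. Of these, 10 of 10 were higher in the wild type and 9 of 10 in knockout-labelled cells. In these last 10 genes the wild-type median was the highest of the 4 classes. In the paired fit, wild-type rises numbered 6 of 30, 5 of 18, 1 of 16 and 3 of 10 in the 4 classes in the order given, where 2.99% of all genes tested rose. Mrps18b is 1 of the 3 in the last class, so that count depends on where it is placed. The stalk that recruits translation factors, with Mrpl10 and Mrpl11 at its base and Mrpl12 as its mobile part, had medians of 0.11 and -0.094. Within it Mrpl11 rose in the wild type by 0.40 (paired fit of limma), whereas Mrpl10 and Mrpl12 had 0.058 and 0.11.

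Some Mrps symbols do not name small subunit proteins. Mammals have 3 relatives of bacterial S18: Mrps18c takes the bacterial place, Mrps18b sits elsewhere in the small subunit, and Mrps18a belongs to the large one. Mrps18b read 8.95, 9.05 and 8.74 in the wild-type controls and 9.43, 9.37 and 9.39 after ischemia. The ischemia arrays lay close together and above all controls, and Mrps18b rose by 0.48 ± 0.098 (adjusted p = 0.0176, paired fit of limma). In knockout-labelled cells it read 8.95, 9.13 and 9.12 against 9.10, 9.15 and 9.12, a change of 0.062. Mrps18a read 8.88, 9.14 and 8.96 against 9.29, 9.37 and 9.31 in the wild type (0.33, adjusted p = 0.0929, paired fit of limma) and had -0.042 in knockout-labelled cells, with control array 3 high at 9.68. Mrps18c read 8.86, 9.84 and 9.31 against 9.63, 9.96 and 9.52 in the wild type and 9.47, 9.02 and 8.98 against 9.56, 9.56 and 9.55 in knockout-labelled cells. Its controls were spread widely in both genotypes, and the 2 changes of 0.37 and 0.40 did not pass the paired fit of limma (adjusted p = 0.118 and 0.137), whereas their mean of 0.38 did (adjusted p = 0.0212). Among the 3 paralogs, then, Mrps18c had alike mean changes in both genotypes, and Mrps18b and Mrps18a had mean changes near 0 in knockout-labelled cells. For Mrps18a that mean joins pair changes of opposite sign, 0.24, -0.21 and -0.16. The differences of effects were not called. Mrps30, a large subunit protein despite its name, had 0.28 and 0.23, and its mean effect of 0.26 passed the paired fit of limma (adjusted p = 0.0346). Mrps36, now known as a part of the oxoglutarate dehydrogenase complex, had 0.29 and 0.15. With these 3 symbols (Mrps18a, Mrps30, Mrps36) placed by structure, the wild-type median of the large subunit exceeded that of the small by 0.086.

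The genotypes were then compared within each condition; these comparisons use the same arrays as the ischemia effects and are not independent of them. In control cells, knockout-labelled signals were higher for 58 of the 77 genes, with a median of 0.10 (0.0030 over all genes tested, 50.8% higher). The shift was not particular to the family. Signals were also higher for 56 of 57 cytosolic ribosomal protein genes (median 0.18) and 64 of 73 nuclear respiratory chain and ATP synthase genes (0.14). Of 15 mitochondrial translation factors 7 were higher (-0.020). No member was called by limma (0.0589% of all genes tested); 8 were higher and 0 lower at an unadjusted p under 0.05 (3.5% and 3.65%), and 12 were higher without overlap (5.37%) and 0 lower (4.52%). Mrps12 had the largest difference, with 7.25, 7.21 and 7.16 in the wild-type and 7.45, 7.58 and 7.97 in the knockout-labelled controls (0.46, limma adjusted p = 0.615). Mrpl17 read 7.35, 7.16 and 7.15 against 7.55, 7.38 and 8.001 (0.42, limma adjusted p = 0.596). In both genes knockout-labelled array 3 was highest and the groups did not overlap. Mrpl54 read 7.75, 7.90 and 7.77 against 7.88, 8.25 and 8.41, with a slight overlap (0.38, limma adjusted p = 0.670). The lowest difference, -0.25, belonged to Mrpl22, which read 5.90, 6.14 and 5.97 in the wild-type controls and 6.19, 4.997 and 6.08 in the knockout-labelled ones; it rests on array 2, without which it was 0.13. The median rested in part on wild-type control array 2: it was 0.20 without that array and 0.031 without wild-type control array 3.

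After ischemia the sign was the other way, with knockout-labelled signals lower for 59 of the 77 genes and a median of -0.077 (0.010 over all genes tested, of which 52.7% were higher). Again no member was called by limma (0.714% of all genes tested), 0 members were higher and 5 lower at an unadjusted p under 0.05 (3.79% and 4.56%), and 2 were higher and 9 lower without overlap (8.38% and 8.07%). Mrpl52 had the lowest value, with 8.25, 8.40 and 8.74 in knockout-labelled against 8.90, 8.71 and 9.17 in wild-type ischemia arrays (-0.46, limma adjusted p = 0.349). Mrpl45, which anchors the ribosome at the inner membrane, read 8.44, 8.41 and 8.44 against 8.83, 8.83 and 8.77, a wide gap between 2 tight groups (-0.38, limma adjusted p = 0.336). In control cells Mrpl45 had -0.19, with 8.37, 8.41 and 8.42 in knockout-labelled and 8.52, 8.93 and 8.33 in wild-type arrays. Mrps18b had -0.27, without overlap (limma adjusted p = 0.398). The 2 members that were higher without overlap, Mrps10 and Mrps23, had 0.11 and 0.082. The median was -0.025 after a further quantile normalization and -0.033 without wild-type ischemia array 2.

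Members also varied together from array to array. The correlation of a gene with the mean of the other 76 over the 12 arrays had a median of 0.68, ranging from -0.67 for Mrps16 to 0.96 for Mrpl21 and Mrps21, with 60 genes above 0.5 and 4 below 0. With group means taken out the median was 0.50. The 12 points share arrays and normalization, and these values are a description without a test. They were not computed for other genes, so they cannot show whether varying together is particular to this family. The 4 genes below 0 were Mrps16, Mrpl47, Mrps10 and Mrps2. Mrps7 was the most like the rest once group means were removed, at 0.95.

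Other genes of mitochondrial gene expression were listed beside the family; these lists were drawn up with earlier results of the data known. With group means alone limma called 0 genes of these lists for the ischemia effect of either genotype, so each rise below is a call of the paired fit alone, in which 2.99% of all genes tested rose in the wild type and 0.537% in knockout-labelled cells. Without the block the wild-type rises named here had adjusted p = 0.242 to 0.344 in limma. Among 4 mitoribosome proteins under other symbols the median change was 0.24 in the wild type and 0.13 in knockout-labelled cells, and Chchd1, a small subunit protein, rose in the wild type (0.52, adjusted p = 0.0122, paired fit of limma). The 25 assembly factors had medians of 0.18 and 0.039, with 3 rising in the wild type in the paired fit: Ddx28 (0.44), an RNA helicase for the large subunit, Mtg1 (0.42), a GTPase for the large subunit, and Tfb1m (0.54), which methylates small subunit RNA. The 15 translation factors had 0.14 in both genotypes, and Slirp, which stabilises mitochondrial messenger RNA, rose in the wild type (0.86, adjusted p = 0.00133, paired fit of limma). The 19 mitochondrial aminoacyl-tRNA synthetase genes had 0.12 and 0.066; in the paired fit Yars2 rose in the wild type (0.44, adjusted p = 0.0315 by limma) and Rars2 in knockout-labelled cells (0.58, adjusted p = 0.0386, against 0.560 without the block). The 12 regulators tested had 0.092 and 0.096, with Tefm (0.51), the mitochondrial transcription elongation factor, and Myc (0.44) rising in the wild type in the paired fit. None of the members of these lists fell in either genotype in either fit of limma.

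Lists outside the family had similar medians. The 73 nuclear genes of the respiratory chain and ATP synthase had 0.24 in the wild type, with 72 higher and 6 rising in the paired fit, and 0.052 in knockout-labelled cells with 0. The 57 cytosolic ribosomal protein genes had 0.20, with 55 higher, and 0.021 in knockout-labelled cells, with 0 rising in the paired fit in a single genotype and 5 for the mean effect, for which 9.11% of all genes tested rose. By wild-type pair, the cytosolic medians were 0.28, -0.0051 and 0.29 and those of the 77 mitochondrial ribosomal genes 0.32, 0.16 and 0.32. The second pair was thus the smallest in both lists. Beside these shifts, the mean log2 signal of 7 dividing-cell markers read 6.43, 7.80 and 6.25 in the wild-type controls, 5.89, 6.45 and 5.87 in wild-type ischemia, 6.45, 6.68 and 5.81 in knockout-labelled controls and 6.20, 6.42 and 5.93 in knockout-labelled ischemia arrays. Of the 6 of these markers tested, 6 were lower after ischemia in the wild type (median -0.79) and 5 in knockout-labelled cells (-0.14). In the paired fit 4 of the 6 fell in the wild type and 0 in knockout-labelled cells, against 0.74% and 0.111% of all genes tested. Wild-type control array 2 was the highest both for these markers and, among controls, for the 77 genes. The part of dividing cells in the result was not tested. Other marker lists differed as well. Of 9 microglia markers 8 were higher after ischemia in the wild type (median 0.12) and 7 lower in knockout-labelled cells (median -0.13), and the difference of effects was below 0 for 8 (median -0.32). Their mean signal ran from 9.51 to 10.23 in the wild-type controls, 9.66 to 10.25 in wild-type ischemia, 9.64 to 9.77 in the knockout-labelled controls and 9.48 to 9.62 in knockout-labelled ischemia. Of 5 fibroblast and mural markers tested 5 were lower in each genotype (medians -0.32 and -0.18), as were 4 of 4 neuron markers (-0.20 and -0.17) and 3 of 4 astrocyte markers (-0.26 and -0.14). Oligodendrocyte markers were lower for 4 of 5 in each (-0.047 and -0.15), and muscle markers for 6 and 5 of 7 (-0.10 and -0.12). Border macrophage and monocyte markers went the other way, with 2 of 3 higher in each genotype (0.080 and 0.22). Of 2 endothelial markers 1 was higher in the wild type and 2 in knockout-labelled cells (-0.0027 and 0.17). The part of these cell types in the result was not tested. Over all probe sets the upper quartile of signals ran from 8.13 to 8.17 in the wild-type controls and from 8.24 to 8.25 in wild-type ischemia. In knockout-labelled cells it ran from 8.12 to 8.16 in the controls and from 8.16 to 8.23 after ischemia, with a slight overlap. The part of the upper quartile in the result was not tested.

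**Figure D5:**
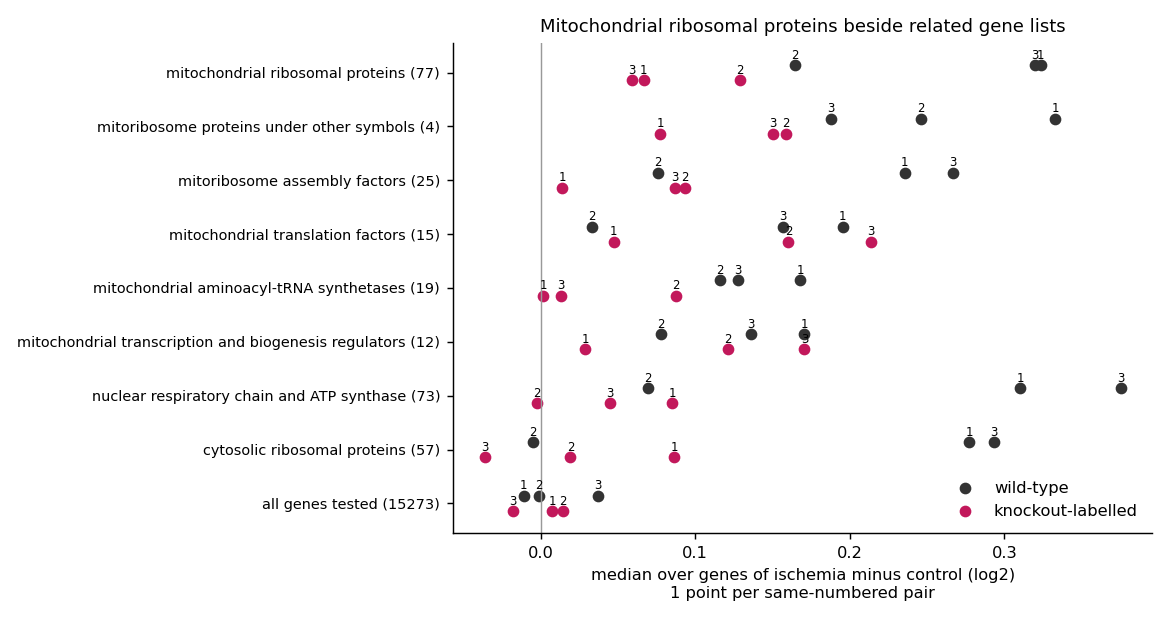
Median change after ischemia (log2, ischemia minus control, horizontal axis) over the genes of each list, with the number of genes in brackets; each point is 1 same-numbered pair with its number, black for wild-type and red for knockout-labelled. The 3 wild-type points of the mitochondrial ribosomal proteins lie between 0.16 and 0.32 and right of the knockout-labelled points at 0.059 to 0.13, while the points of all genes tested lie near 0.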

How the data were processed

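Total RNA of 12 samples was measured on 1 array each. The authors deposited log2 signals for each probe set; the submitters' processing notes name RMA and Affymetrix Expression Console 1.1. Scanner files were not used here. Of 35557 probe sets, 21789 had 1 symbol, which was updated through Entrez identifiers. The brightest probe set stood for a gene, and genes at or below the 30th percentile of probe set means (5.36) were left out. Groups and replicate numbers came from the titles.

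All 12 arrays entered 1 fit of group means (limma 3.58.1 under R 4.3.3), and a call is an adjusted p under 0.05 by Benjamini-Hochberg over the 15273 genes. Changes are differences of log2 signal. Deviations from group means correlated between same-numbered control and ischemia arrays at 0.48, 0.73 and 0.48 (wild type) and 0.36, 0.32 and 0.49 (knockout-labelled). Each was above 0.1, but the limit alone does not single out these pairs. Also above it were wild-type control 1 with ischemia 3 (0.40), control 3 with ischemia 1 (0.12), and knockout-labelled control 1 with ischemia 2 (0.22). The remaining different-numbered values were negative, and each control array correlated most with the ischemia array of its own number. The numbers were therefore taken to pair arrays within a genotype. This rests on the data, since no label explains the numbers, and every paired call depends on it. Between genotypes the numbers were not taken to pair arrays (same-numbered values -0.33 to 0.33). The paired fit has a block level per genotype and number.

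Members, lists and named genes (up to 8 called members by p, otherwise the 3 largest rises and falls, in each comparison; the 3 brightest and dimmest of each subunit; the Mrps18 paralogs; members whose probe sets disagree in sign; members without overlap in both genotypes) were chosen with earlier results of these data known; other members named, such as Mrpl2, Mrpl37 and Mrpl48, were added with their values in view. The fit of group means and the paired fit were tested on simulated data for the wild-type ischemia effect only, with genes drawn independently. Other comparisons and alternatives were not simulated. Alternatives were the arrays fitted, blocks, dim filter, quantile normalization, median centring, probe set and symbol rules, variance prior, subunit assignment and leaving out each array. The number of arrays limits the precision.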

Additional observations from a re-analysis of the deposited data

Results flagged for a closer look

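In 4 members all 3 wild-type pairs were higher after ischemia and all 3 knockout-labelled pairs lower, a pattern that 2.02% of all genes tested showed. The knockout-labelled change minus the wild-type change was -0.45 for Mrpl48, -0.42 for Mrps12, -0.34 for Mrpl2 and -0.31 for Mrpl37. None of these differences passed limma (adjusted p = 1.00 with group means, 0.406 to 0.561 in the paired fit). Mrpl48 read 8.12, 8.59 and 8.38 in wild-type controls and 8.59, 8.68 and 8.85 after ischemia, and 8.54, 8.605 and 8.55 against 8.39, 8.49 and 8.47 in knockout-labelled cells; all arrays lay above the controls in the first case and below them in the second. Mrps12 read 7.37, 7.38 and 7.41 in wild-type ischemia and 7.30, 7.21 and 7.76 in knockout-labelled ischemia arrays, beside the control values given for it above. Mrpl2, which lies near the site where the peptide bond is made, had changes of 0.32 and -0.026, and Mrpl37 of 0.20 and -0.11. The reverse pattern was found in 0 members (0.877% of all genes tested).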

How the results depend on the processing

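The members called by limma with group means numbered 0 in all 6 comparisons, and 0 in each with the 3-level replicate block. With the replicate block within genotype they numbered 15 for the wild-type ischemia effect, 1 for the knockout-labelled effect and 25 for the mean effect; the pairing changed no call for the difference of effects. Leaving out 1 array gave 0 to 6 for the wild-type effect (6 without wild-type control 2), 0 to 11 for the mean effect and 0 in the other comparisons. For the paired counts, the wild-type 15 became 7 with no dim filter, 6 with quantile normalization and 30 with median centring, and ranged from 3 to 16 over left-out arrays. The knockout-labelled 1 became 3 with the dim filter at the 50th percentile and 3 with median centring, and ranged from 0 to 7. The 25 for the mean effect became 15 with quantile normalization and ranged from 7 to 28. These alternatives for the paired fit were chosen after seeing the data, and the cause of the shifts was not tested.

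Over left-out arrays the median member change ranged from 0.22 to 0.36 (wild type), 0.037 to 0.12 (knockout-labelled), 0.14 to 0.21 (mean effect), 0.031 to 0.20 (genotype, control), -0.11 to -0.033 (genotype, ischemia) and -0.28 to -0.098 (difference of effects). Quantile normalization gave 0.20 and 0.024 for the 2 ischemia effects and median centring 0.33 and 0.094, beside -0.026 in both and 0.072 and 0.013 over all genes tested. Large minus small ranged from 0.022 to 0.11, -0.022 to 0.030, 0.0064 to 0.036, 0.0013 to 0.041, -0.034 to -0.0040 and -0.096 to 0.0013 in the same order; in the wild type it was 0.076 with the mean of probe sets and 0.086 with subunits by structure. Mrpl47 changed sign in the wild type with median centring (0.0093), the mean of probe sets (0.23), without wild-type control replicate 1 (0.0041) and without wild-type ischemia replicate 2 (0.053), its range over left-out arrays being -0.12 to 0.053, for the mean effect with the mean of probe sets (0.15) and between genotypes after ischemia with the mean of probe sets (-0.052). Mrpl22 changed sign between genotypes in control cells without knockout-labelled control replicate 2 (0.13), with a range of -0.46 to 0.13. The causes were not tested.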
